A study of Rattus norvegicus with 8 samples.

Results

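Expression of 10 genes of prostaglandin synthesis, signalling and clearance was examined in the rat ovary. The genes were Pla2g4a, Ptgs1, Ptgs2, Ptges, Ptgds, Ptger2, Ptger4, Ptgfr, Slco2a1 and Hpgd. They were found by name on a 1-colour Agilent rat expression array with 30367 non-control probes, on which they had 11 probes, 2 for Ptgs1 and 1 for each other gene. Ovaries were compared between 4 control arrays, from female rats given 0.2 ml of albumin phosphate buffer alone, and 4 PMSG arrays, from female rats given 50 IU of PMSG in the same volume. PMSG (pregnant mare serum gonadotropin) is a hormone preparation with mainly follicle-stimulating activity. Injection was at 26 days and collection 48 h later, at 28 days of age; strain is not given in the sources used here. The labels number the samples 1 to 4 without saying that each came from its own animal, so p-values measure the spread between these samples.

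Prostaglandins are made from arachidonic acid, which phospholipases cut from membrane lipids. The cyclooxygenases PTGS1 and PTGS2 convert it to PGH2, and terminal synthases turn PGH2 into PGE2, PGD2, PGF2alpha and other prostanoids, which act on G protein-coupled receptors. Signals end when the transporter encoded by Slco2a1 carries prostaglandins into cells and the dehydrogenase encoded by Hpgd oxidises them. In the ovary, PTGS2 and PGE2 receptors are known for their part in cumulus expansion and ovulation after the luteinising hormone (LH) surge, and PGF2alpha acting on PTGFR is known as a signal for regression of the corpus luteum.

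Every direction below follows the labels, PMSG set against control. Of 6 tested genes listed as luteal markers (Lhcgr, Star and Cyp11a1 among them), 5 were lower and 0 were higher in arrays labelled PMSG. That is opposite to the direction generally known for gonadotropin treatment. The sources used here do not settle whether the labels were exchanged; if they were, every direction below would turn. All 6 oocyte markers and 7 of 8 granulosa cell markers were measurable; the aromatase gene Cyp19a1 was well above background on 0 arrays. The 75th percentile of the signal ran from 1002 to 1103 on arrays labelled control and from 769 to 1082 on arrays labelled PMSG. Levels below are log2 processed signals minus the 75th percentile of the same array, and a probe was tested where it was well above background, by the scanner software's call, on at least 4 of 8 arrays. Of 25303 probes tested, 34.2% differed between the labels (limma adjusted p under 0.05), 17.6% of all being higher and 16.6% lower in arrays labelled PMSG. Of those that differed, 51.4% were higher, a share that fell to 34.5% under median centring.

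The probes are 60 bases long, and 3 of the dim ones are shown, since dimness bears on what is said of them. The Ptgs1 probe at base 460 of its transcript is the dimmer of the pair for that gene and did not pass; the brighter one, by which Ptgs1 is counted, is not shown. The probe for Ptgs2 starts at base 1755 and ends in the letters of a stop codon, given in capitals. The Ptger4 probe starts at base 1397.
Ptgs1: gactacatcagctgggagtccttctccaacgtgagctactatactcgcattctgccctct
Ptgs2: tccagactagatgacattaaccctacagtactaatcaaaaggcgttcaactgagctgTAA
Ptger4: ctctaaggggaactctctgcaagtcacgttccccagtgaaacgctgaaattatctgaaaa

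The PGF2alpha receptor transcript was measurable only in arrays labelled control, while transcripts of PTGES, PTGS1 and both Gs-coupled PGE2 receptors were about 2-fold more abundant in arrays labelled PMSG and that of the uptake transporter about 2-fold less. On processed signals, folds were 2.07 for Ptges, 1.97 for Ptgs1, 2.12 for Ptger2, 1.97 for Ptger4 and 2.06 for Slco2a1. Under normexp background correction the log2 differences of the dimmer genes shrank, to 0.54 for Ptger2, 0.49 for Ptger4 and -0.58 for Slco2a1. The Ptger4 call was lost under quantile normalization and median centring. Ptgs2 was not well above background on any array labelled PMSG and was not tested. Pla2g4a, Ptgds and Hpgd did not pass the threshold. Of the 8 genes detected on every one of the 8 arrays, 4 were higher, 1 was lower and 3 did not pass; of all probes measured on every array, 35.1% passed. The median log2 difference of these 8 genes was 0.86 and that of all tested probes 0.11. Groups did not overlap for 5 of the 8, against 36.6% of all tested probes. A log2 difference of at least 1 as well was reached by 3 of the 8 (Ptges, Ptger2 and Slco2a1), against 11.8% of all tested probes. Ptgfr was tested only because it was bright in arrays labelled control, and is left out of these counts.

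**Figure D1:**
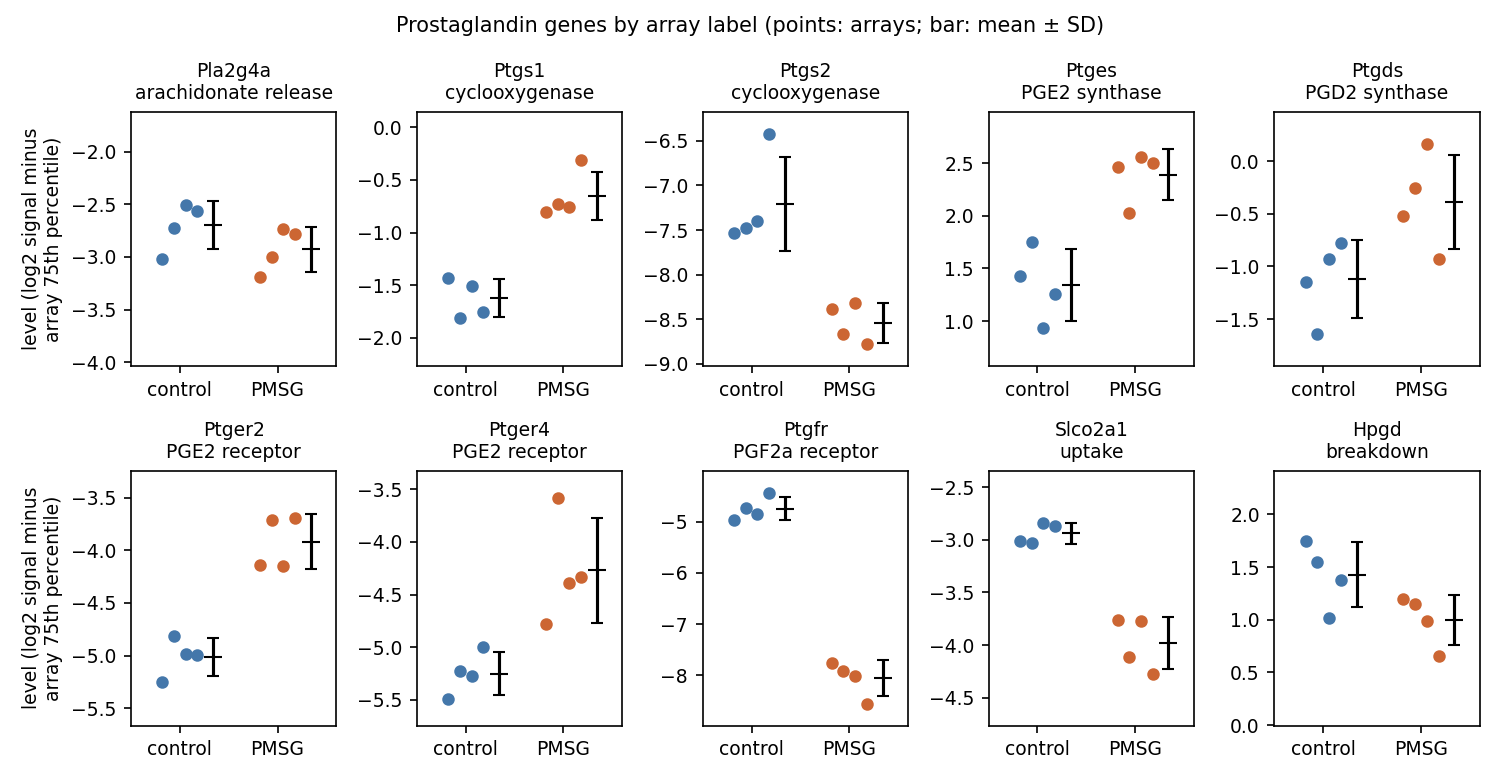
Level of each gene (log2 signal minus the array's 75th percentile, brightest probe) in 4 control and 4 PMSG arrays, with bars for the mean ± SD; vertical axes differ between panels. Groups are apart for Ptgs1, Ptges, Ptger2, Ptger4, Ptgfr and Slco2a1, and also for Ptgs2, whose values lie in the background; they overlap for Pla2g4a, Ptgds and Hpgd.

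For the release of arachidonic acid, no difference in cytosolic phospholipase A2 passed the threshold. Pla2g4a encodes the calcium-dependent enzyme that releases arachidonate in most cells. Its levels were -3.02, -2.73, -2.51 and -2.56 in control arrays 1 to 4 and -3.19, -3.00, -2.74 and -2.78 in PMSG arrays 1 to 4. The groups overlapped, and their log2 difference of -0.22 (95% interval -0.57 to 0.13, limma adjusted p = 0.284) did not pass. The probe lies on chromosome 13 from 64146152 to 64146211 (build rn4, as for all probe positions).

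Both cyclooxygenase genes were read, with opposite results as to detection. Ptgs1 encodes the isozyme that most tissues make constantly. Its brighter probe (base 2482 of the transcript; chromosome 3, 15365115 to 15365174) stood at -1.43, -1.81, -1.51 and -1.75 in control arrays 1 to 4, and at -0.80, -0.73, -0.76 and -0.31 in PMSG arrays 1 to 4. Every array labelled PMSG was above every array labelled control, by at least 0.63. Means differed by 0.98 on the log2 scale (SE 0.15; limma adjusted p = 0.00162), with 1.03 among arrays in row 1 of the slide and 0.92 in row 2. The dimmer Ptgs1 probe shown above (chromosome 3, 15350683 to 15350742) gave a log2 difference of 0.95, close to that of the brighter one, but its arrays spread more widely, with an SD of 0.65 in control and 0.74 in PMSG. That probe did not pass (SE 0.43, limma adjusted p = 0.119), and the groups overlapped. It passed without PMSG array 4, with array weights and with a replicate block.

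Ptgs2, which encodes the inducible isozyme, was near the limit of detection everywhere. Its unscaled signals were 5.65, 5.92, 5.94 and 12.9 in control arrays 1 to 4 and 2.92, 2.54, 2.41 and 2.46 in PMSG arrays 1 to 4. Only in control array 4 was the probe called well above background, in part of its spots, at a level of -6.42 where the lowest spot so called lay at -6.65. In the other arrays labelled control it stood between -7.53 and -7.40, and in arrays labelled PMSG between -8.78 and -8.32. Values of the groups did not touch, but with 1 of 4 and 0 of 4 arrays above background they carry no fold, and the probe (chromosome 13, 64432919 to 64432978) was not tested. When all probes were tested whatever their brightness, it passed (limma adjusted p = 0.00704). That test compared mostly background values, and no difference in Ptgs2 is read from it.

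**Figure D2:**
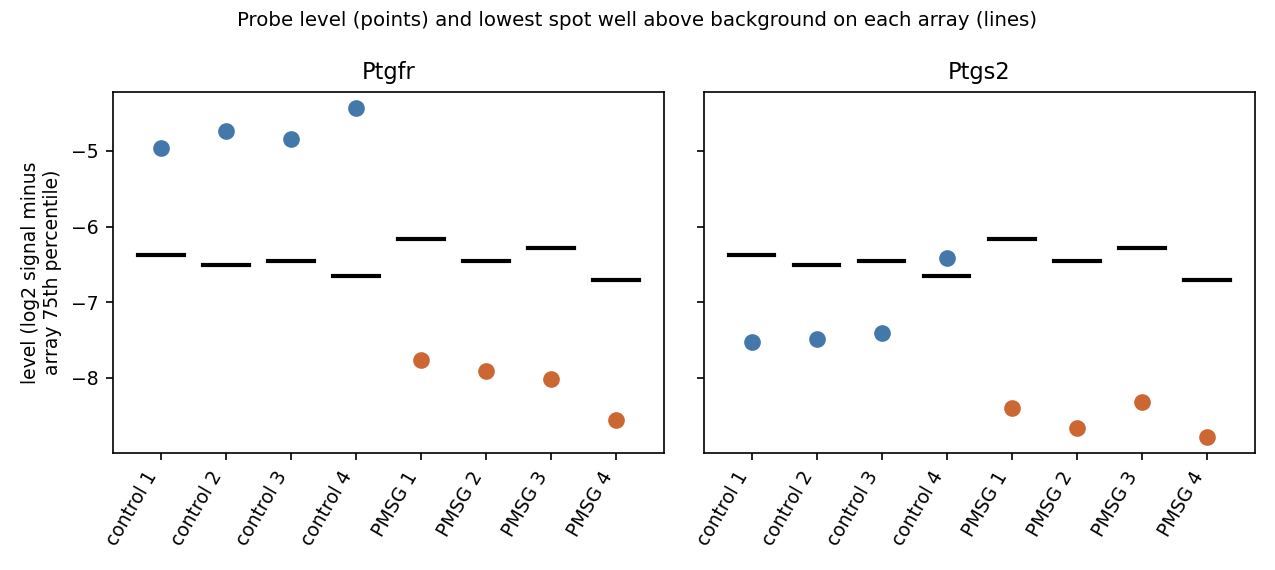
Level of the Ptgfr and Ptgs2 probes (points) on each array and the lowest spot called well above background on that array (lines), both as log2 signal minus the array's 75th percentile. Ptgfr lies above the line on the 4 control arrays and below it on the 4 PMSG arrays, while Ptgs2 rises above it on control array 4 alone.

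Among the terminal synthases, Ptges was higher in arrays labelled PMSG. It encodes microsomal PGE synthase, the enzyme usually coupled to PTGS2. Its levels were 1.43, 1.75, 0.93 and 1.26 in control arrays 1 to 4 and 2.46, 2.03, 2.56 and 2.50 in PMSG arrays 1 to 4. The groups were apart by 0.28, which gave a log2 difference of 1.05 with an SE of 0.19 (limma adjusted p = 0.00428), and with 0.79 in slide row 1 and 1.30 in row 2. The probe, of 1 spot per array, lies on chromosome 3 from 9946741 to 9946800.

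Ptgds encodes the lipocalin-type PGD2 synthase. Its levels were -1.15, -1.64, -0.93 and -0.78 in control arrays 1 to 4 and -0.52, -0.26, 0.16 and -0.93 in PMSG arrays 1 to 4. PMSG array 4 lay within the control range and the other arrays labelled PMSG above it. The log2 difference of 0.74 (95% interval 0.13 to 1.34, limma adjusted p = 0.0616) did not pass. It passed without PMSG array 4 (0.92, limma adjusted p = 0.0205), and with all arrays under normexp background correction (0.67, limma adjusted p = 0.0407) or array weights (0.84, limma adjusted p = 0.0309). Within slide rows it was 1.16 in row 1 and 0.32 in row 2, which holds PMSG array 4. The 60 bases of the probe span 470 bases of chromosome 3 (3633310 to 3633779), so they come from more than 1 exon. Set against each other within each array, Ptges and Ptgds did not move apart detectably: their log2 ratio differed by 0.31 between the labels (exact two-sided permutation test, p = 0.486, adjusted over 3 pairs 0.629).

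The Gs-coupled PGE2 receptors rose together. Ptger2 encodes EP2, the receptor through which PGE2 raises cyclic AMP in cumulus cells. It stood at -5.25, -4.81, -4.98 and -4.99 in control arrays 1 to 4 and at -4.14, -3.71, -4.15 and -3.69 in PMSG arrays 1 to 4. The groups were 0.66 apart and their means differed by 1.08 (SE 0.15; limma adjusted p = 0.00126), with 0.97 and 1.20 in slide rows 1 and 2. Its probe lies on chromosome 15 from 20889441 to 20889500.

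Ptger4 encodes EP4, the other receptor of this class. Its levels were -5.49, -5.23, -5.27 and -5.00 in control arrays 1 to 4 and -4.78, -3.58, -4.39 and -4.33 in PMSG arrays 1 to 4. PMSG array 2 was the highest, and the groups were 0.22 apart. Means differed by 0.98 on the log2 scale with an SE of 0.24 (limma adjusted p = 0.0160), with 1.13 and 0.82 in slide rows 1 and 2. Both receptors were dim, and the call for Ptger4 (chromosome 2, 54423296 to 54423355) was lost under quantile normalization (0.71, limma adjusted p = 0.122) and median centring (0.81, limma adjusted p = 0.0529). The within-array log2 ratio of Ptger2 to Ptger4 differed by 0.11 between the labels (exact two-sided permutation test, p = 0.629, adjusted over 3 pairs 0.629).

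On processed signals, Ptgfr had the largest difference of the 10 genes. It encodes FP, the receptor for PGF2alpha, which in the ovary is known mainly from luteal cells. Its levels were -4.96, -4.74, -4.85 and -4.44 in control arrays 1 to 4 and -7.76, -7.91, -8.01 and -8.55 in PMSG arrays 1 to 4. The probe was well above background on 4 of 4 arrays labelled control and 0 of 4 labelled PMSG. The size of the difference therefore has only a bound: on processed signals, arrays labelled control held at least 3.14-fold more Ptgfr signal. For this bound each PMSG array took its lowest spot well above background. The bound does not apply under normexp background correction, where the log2 difference was -0.53. The measured means were -4.75 ± 0.22 (SD, n = 4) and -8.06 ± 0.35 (SD, n = 4), and the fitted difference of -3.31 (limma adjusted p = 4.09e-05; -3.37 and -3.25 in slide rows 1 and 2) takes values below background and is no measure of its size. The file headers place the probe on chromosome 2_random, an unplaced part of chromosome 2, from 3457506 to 3457565.

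Of the genes of clearance, the transporter fell and the dehydrogenase did not pass. Slco2a1 encodes the prostaglandin transporter. It stood at -3.01, -3.03, -2.84 and -2.87 in control arrays 1 to 4 and at -3.76, -4.11, -3.77 and -4.27 in PMSG arrays 1 to 4. Control arrays lay within 0.19 of each other, and the groups were 0.73 apart. The difference of the means was -1.04 with an SE of 0.14 (limma adjusted p = 9.45e-04), with -0.99 and -1.09 in slide rows 1 and 2 (chromosome 8, 108098202 to 108098261).

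Hpgd encodes the dehydrogenase that starts the breakdown of PGE2 and PGF2alpha. Its levels were 1.75, 1.55, 1.02 and 1.38 in control arrays 1 to 4 and 1.20, 1.15, 0.99 and 0.66 in PMSG arrays 1 to 4. Control array 3 lay among the arrays labelled PMSG. The log2 difference of -0.43 (95% interval -0.85 to 0.00, limma adjusted p = 0.110) did not pass with all arrays, but did without control array 3 (-0.56, limma adjusted p = 0.0436) and under median centring (-0.59, limma adjusted p = 0.0344). The probe lies on chromosome 16 from 37420061 to 37420120. The log2 ratio of Hpgd to Slco2a1 within each array averaged 4.36 ± 0.40 (SD, n = 4) under the control label and 4.98 ± 0.21 (SD, n = 4) under the PMSG label. That difference of 0.62 reached the smallest p this design allows (exact two-sided permutation test, p = 0.0286), but not the threshold after adjustment over the 3 pairs (0.0857). Pairs with Ptgs2 were left out because its probe was not above background.

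**Figure D3:**
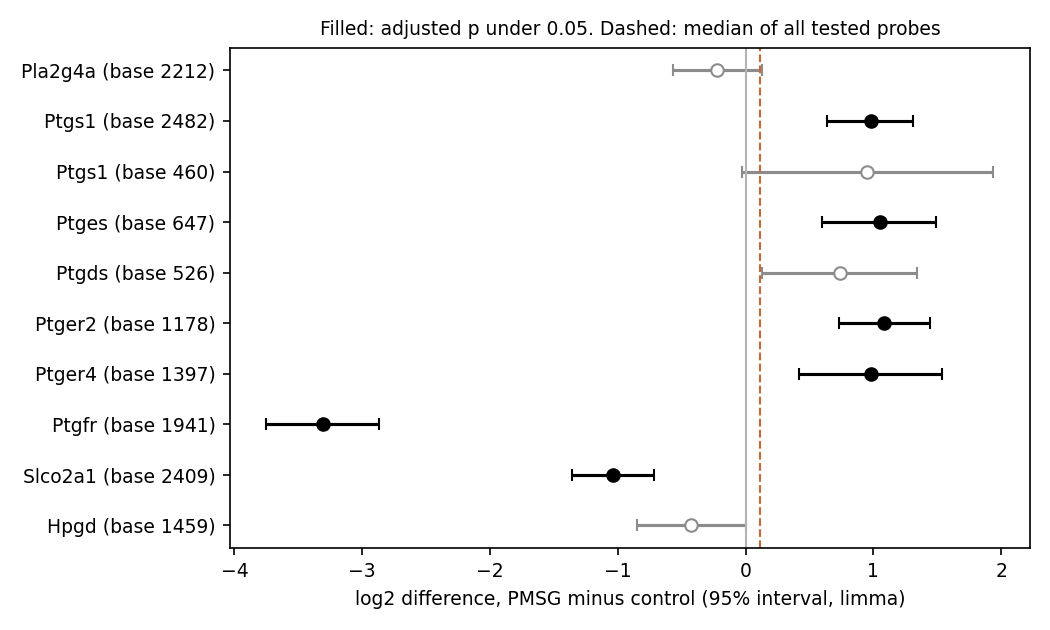
Log2 difference between PMSG and control arrays with its 95% interval (limma) for each tested probe, named by gene and first base in the transcript; filled points passed at an adjusted p under 0.05, and the dashed line is the median of all tested probes, 0.11. Ptgfr at -3.31 is farthest from the line, and its PMSG arrays lie below background.

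Background correction set the size of the dim differences. With normexp and an offset of 50, which draws dim signals together, the log2 difference was -0.53 for Ptgfr, -0.58 for Slco2a1, 0.54 for Ptger2 and 0.49 for Ptger4, and all 4 kept their call. Quantile normalization and median centring kept the direction of all 9 tested genes.

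**Figure D4:**
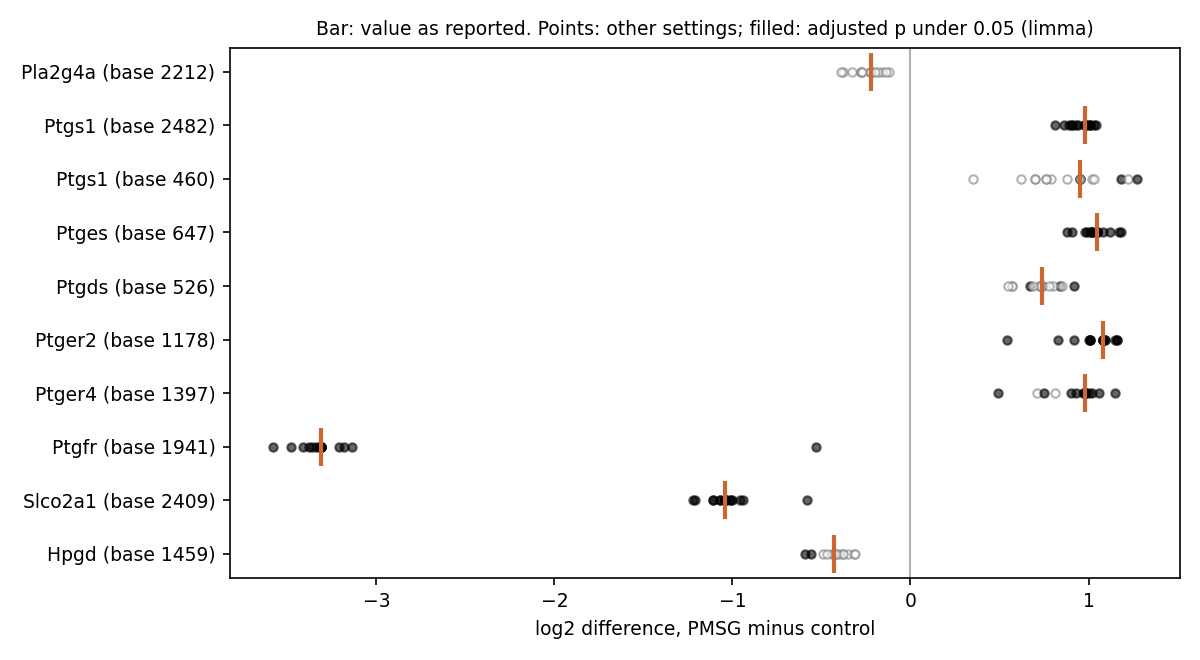
Log2 difference (PMSG minus control) of each tested probe as reported (bars) and under the other settings (points, filled where the limma adjusted p was under 0.05). No probe crosses 0; Ptgfr moves from -3.31 to -0.53 with normexp, and Ptger4, Ptgds, Hpgd and the Ptgs1 probe at base 460 have both filled and open points.

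The other genes of the pathway, from 6 lists, moved in both directions. Of 49 detected on each of the 8 arrays, 12 were higher and 13 lower in arrays labelled PMSG, with a median log2 difference of 0.07; of all tested probes 17.6% were higher and 16.6% lower, and of those measured on every array 35.1% passed in either direction. Cysltr1, Ereg and Has2 were tested through 1 label mainly and are left out of these counts and of those by list.

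Of 8 other prostanoid synthases, 1 was higher, 2 were lower and 5 did not pass (median -0.06). Cbr1, a carbonyl reductase that can convert PGE2 to PGF2alpha, ran from 5.33 to 5.52 in arrays labelled control and from 3.38 to 3.95 in arrays labelled PMSG, a difference of -1.72 (SE 0.13, limma adjusted p = 1.11e-04). Prxl2b, which encodes prostamide/PGF synthase, fell by 0.67 on the log2 scale. Akr1b1, an aldose reductase that can form PGF2alpha, differed by 0.68 (limma adjusted p = 0.0381). That call was lost without any single array except PMSG array 4, with adjusted p from 0.0516 to 0.0935 in those 7 fits. With all arrays it was also lost under median centring (limma adjusted p = 0.0886) and with a replicate block (limma adjusted p = 0.0729).

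Of 7 other prostanoid receptor genes, 3 were higher, 0 lower and 4 did not pass (median 0.31). Ptger3 encodes EP3, the PGE2 receptor that lowers cyclic AMP. Its brighter probe stood at -4.26, -4.07, -3.61 and -4.57 in control arrays 1 to 4 and at -2.89, -2.60, -2.31 and -3.25 in PMSG arrays 1 to 4, a difference of 1.36 (SE 0.26, limma adjusted p = 0.00449) with no overlap. Its other probe, well above background on 3 of 4 control arrays, gave 1.78 (limma adjusted p = 0.00754). Tbxa2r, the thromboxane receptor gene, rose by 0.63, a call lost under quantile normalization, median centring and without PMSG array 3 (0.57, limma adjusted p = 0.0570). Ptgfrn, whose protein is known as a regulator of FP, differed by 0.31. That call was lost without any 1 of the control arrays 1 to 4 or PMSG array 1 (limma adjusted p from 0.0595 to 0.0800 in those fits). It was also lost under median centring and with a replicate block.

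Of 6 genes of breakdown and transport, 3 were higher and 2 lower (median 0.45). Abcc4 encodes MRP4, which exports prostaglandins. Its brighter probe ran from 0.72 to 0.95 in arrays labelled control and from -0.86 to -0.71 in arrays labelled PMSG, a difference of -1.66 (SE 0.09, limma adjusted p = 3.67e-05), and its other probe gave -1.81. Ptgr1, a reductase acting after HPGD, rose by 1.09 (SE 0.09). Cyp4f1, an omega-hydroxylase of arachidonate and its products, rose by 3.19, from -2.59 to 0.60 on average. Cyp2j4, an epoxygenase, rose by 0.61, a call lost under median centring. Its other probe gave 0.47 (limma adjusted p = 0.0274). The call of that probe was lost in 7 of 18 alternatives, quantile normalization and median centring among them.

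Of 14 genes of arachidonate release and handling, 3 were higher and 3 lower (median 0.30). The secreted phospholipase genes that passed rose, Pla2g5 by 1.50 (SE 0.19, limma adjusted p = 6.74e-04) and Pla2g2a by 1.39 (SE 0.28, limma adjusted p = 0.00639). Of genes that load arachidonate into lipids, 2 of those that passed are named here, and both fell. Lpcat3, an acyltransferase, differed by -1.86 (SE 0.14, limma adjusted p = 9.75e-05). Acsl4, an acyl-CoA ligase that prefers arachidonate, differed by -1.40 (SE 0.12, limma adjusted p = 1.88e-04). Levels of Acsl4 ran from 2.11 to 2.37 in arrays labelled control and from 0.67 to 1.12 in arrays labelled PMSG, without overlap.

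Of 7 genes of the lipoxygenase and leukotriene branch, 1 was higher and 2 were lower (median 0.07). Lta4h, the leukotriene A4 hydrolase gene, fell by 0.66 (SE 0.09, limma adjusted p = 0.00133). Cysltr1, a leukotriene receptor gene, was well above background on 4 of 4 PMSG arrays and 1 of 4 control arrays, and the size of its difference is not given. Ltc4s and Alox15 passed with differences of 1.06 and -1.45. The Ltc4s call was lost without control array 2, 3 or 4 or PMSG array 1, 2 or 3, with adjusted p from 0.0621 to 0.0778 in those fits. The Alox15 call was lost without control array 1 or 2 or PMSG array 1, 2 or 3, with adjusted p from 0.0725 to 0.0997 in those fits. With all arrays it was also lost with a replicate block (limma adjusted p = 0.0536) and with no filter on dim probes (limma adjusted p = 0.0530).

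Ptgs2 is usually induced by LH together with a set of ovulatory genes, of which 7 were detected on each of the 8 arrays. Of these, 4 were lower, 1 was higher and 2 did not pass (median -1.02). Areg and Adamts1 fell by 4.08 and 1.31 on the log2 scale, and Ptx3 rose by 1.55. Outside these counts, Ereg was above background on 4 of 4 control and 0 of 4 PMSG arrays. On processed signals Ereg was at least 18.3-fold lower in the latter, and under normexp background correction its log2 difference was -2.11.

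**Figure D5:**
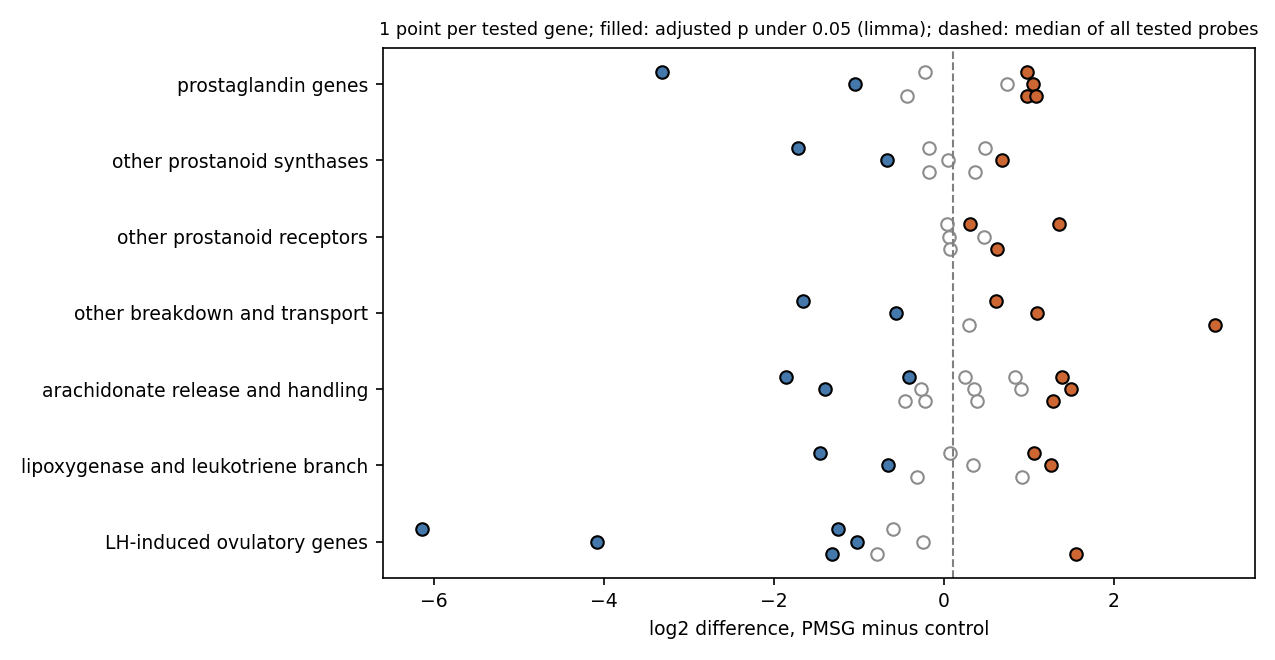
Log2 difference (PMSG minus control) of every tested gene in the prostaglandin set and in the 6 further lists, 1 point per gene at its brightest probe; filled points passed (limma, adjusted p under 0.05) and the dashed line is the median of all tested probes, 0.11. Each list except the other prostanoid receptors holds genes on both sides that passed; points for Ptgfr, Ereg, Has2 and Cysltr1 include arrays below background.

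Marker genes of several cell types also differed between the labels. Of all tested probes 17.6% were higher and 16.6% lower in arrays labelled PMSG, and of those measured on every array 35.1% passed. The counts of markers below stand beside these shares. In RNA from ovary tissue, fewer cells of a type and less RNA per cell cannot be told apart. Summed levels are on the linear scale, relative to the array's 75th percentile. For the 6 genes listed as luteal markers the sum ran from 270 to 305 in arrays labelled control and from 118 to 178 in arrays labelled PMSG. The brightest of them was Hsd3b1, which differed by 0.07 and did not pass. Whether ovaries of this age held luteal cells was not examined, so this sum does not show a change in such cells. The same sum over 8 endothelial markers ran from 21.0 to 24.5 and from 17.1 to 18.6. Its brightest marker was Kdr, which differed by -0.43. Of the 7 measured on all arrays 3 were lower, 1 (Vwf, 0.50) was higher and 3 did not pass, Pecam1 and Cdh5 among them. Granulosa sums overlapped, running from 106 to 169 and from 86.7 to 112. Of 7 tested, 3 were lower and 1 was higher, with log2 differences from -1.47 to 3.03 (Amh). Sums that were higher in arrays labelled PMSG were those of macrophages and leukocytes (9.86 to 12.7 against 14.1 to 16.5, 4 of 8 higher and 0 lower) and of mast cells (0.352 to 0.529 against 0.893 to 1.14, 5 of 5 tested higher). The sum of epithelial markers of oviduct or ovary surface was also higher, running from 18.4 to 24.7 and from 31.2 to 47.7, and of the 7 of 9 measured on all arrays 4 were higher. Oocyte markers ran from 2.86 to 5.14 and from 9.79 to 21.9, with 6 of 6 higher. Theca markers (31.3 to 40.3 against 23.7 to 48.5, 3 of 4 higher) and those of smooth muscle and fibroblasts (99.1 to 130 against 105 to 143, 3 of 7 higher) also overlapped in their sums. The part of these cell types in the differences of the prostaglandin genes was not tested.

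Promoter sequences were read for genes that moved and for Ptgs2, to show the DNA just before each start. Each is the 250 bases before the RefSeq start in build GRCr8, 5′ to 3′ on the gene's strand; all 10 genes had an entry. Capitals mark matches, on either strand, to the 7 motifs spelled out after the sequences; none of the marked matches overlap. Positions are chr2:243425624-243425873 (minus strand) for Ptgfr, chr8:112467489-112467738 (plus) for Slco2a1, chr3:34586988-34587237 (minus) for Ptges, chr3:39981169-39981418 (plus) for Ptgs1 and chr13:64713813-64714062 (plus) for Ptgs2.
Ptgfr: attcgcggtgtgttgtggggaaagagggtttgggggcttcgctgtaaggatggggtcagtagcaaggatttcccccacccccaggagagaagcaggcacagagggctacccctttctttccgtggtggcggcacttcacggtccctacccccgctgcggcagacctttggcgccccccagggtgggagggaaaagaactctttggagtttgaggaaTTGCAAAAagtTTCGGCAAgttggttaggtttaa
Slco2a1: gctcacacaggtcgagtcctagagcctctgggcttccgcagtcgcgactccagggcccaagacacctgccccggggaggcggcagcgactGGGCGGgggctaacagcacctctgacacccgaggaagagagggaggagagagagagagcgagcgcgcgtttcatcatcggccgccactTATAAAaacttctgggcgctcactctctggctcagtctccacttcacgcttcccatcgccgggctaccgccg
Ptges: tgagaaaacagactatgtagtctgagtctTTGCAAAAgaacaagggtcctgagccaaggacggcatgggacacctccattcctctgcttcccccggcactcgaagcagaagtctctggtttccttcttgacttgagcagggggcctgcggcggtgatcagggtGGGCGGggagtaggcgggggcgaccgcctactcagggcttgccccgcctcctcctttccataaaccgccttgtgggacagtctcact
Ptgs1: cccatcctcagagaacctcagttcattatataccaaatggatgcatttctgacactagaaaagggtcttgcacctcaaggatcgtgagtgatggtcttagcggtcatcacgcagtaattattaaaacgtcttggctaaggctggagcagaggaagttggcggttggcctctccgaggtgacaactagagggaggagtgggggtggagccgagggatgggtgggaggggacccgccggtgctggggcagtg
Ptgs2: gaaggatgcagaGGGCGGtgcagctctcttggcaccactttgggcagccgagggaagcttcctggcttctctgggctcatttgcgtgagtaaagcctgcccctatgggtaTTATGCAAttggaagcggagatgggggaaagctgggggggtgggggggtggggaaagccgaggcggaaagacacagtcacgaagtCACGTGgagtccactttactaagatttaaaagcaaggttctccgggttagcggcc

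The C/EBP motif was searched as TTGCNNAA. The Ptgfr window held matches to it that start 34 and 23 bases before the gene's start, and Ptges and Ptgs2 held 1 each; 3 of the 10 genes and 9.22% of 33469 rat promoter windows had such a match. Ptgs2, alone of the 10, had the E-box, searched as CACGTG, 55 bases before its start (5.59% of all windows); this element is known for its role in Ptgs2 induction in granulosa cells. The GC box GGGCGG was found in 5 of the 10 (30.5% of all windows) and the TATA box TATAAA in 2 (12.9%). The core of the cyclic AMP response element, TGACG, was found in 1, Hpgd (18.2%). Neither the AP-1 motif TGANTCA (6.34% of all windows) nor the NR5A motif AAGGTCA (3.99%) was matched in the 10. The Ptgs1 window held none of the 7 sequences. A match is a description of letters and not a measured binding site.

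Profiles most like those of Ptger2, Ptges and Slco2a1, the 3 genes with the largest differences among those measured on all arrays, were sought among 19984 other genes by the root mean square distance over 8 arrays after centring each probe on its mean. Nearest to Ptger2 were Wfikkn1 (0.111 log2 units), the transcript ENSRNOT00000024072 (0.112) and Fam221a (0.113), where the median gene lay at 0.630 (0.613 from Ptges and 0.631 from Slco2a1). Nearest to Ptges were TC627875 (0.144), Fam13a (0.159) and TC615020 (0.168). Nearest to Slco2a1 were Defb36 (0.0765), the transcript ENSRNOT00000039569 (0.0813) and the unnamed probe A_64_P067148 (0.0882). The arrays are shared by all profiles, and the distances are a description.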

How the data were processed

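Spot intensity came, per the file headers, from version 11.5.1.1 of Agilent Feature Extraction, 1 slide and 1 scan, with coordinates on rn4. Of 30367 probes, 17 without a usable spot on some array were dropped. Log2 intensity was averaged over the spots of a probe without outlier spots, and no spot was saturated. The table of log2 values that the authors deposited matched these values array by array (median absolute difference from 0.00442 to 0.0147) and is uncentred; columns not used numbered 0. The 4 arrays of each label were fitted in limma (3.58.1, R 4.3.3) with no covariate, and p-values were adjusted by Benjamini-Hochberg across the 25303 probes tested. A probe was well above background where at least 0.5 of its usable spots were.

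The genes and lists were chosen with earlier results of these data known. Each gene counts by its brightest probe. Beyond the 10 genes, those named are the ones past the threshold, at most 4 per list by size. Names are those of the array; Prxl2b, Ptgdr and Cyp19a1 were reached through RefSeq accessions, and Akr1c18 and Hhip were not analysed here. Promoters are from RefSeq, build GRCr8. The alternatives were another scaling, background correction, filter, array weights, blocks, the deposited values and leaving out each array. In simulated data 200 of 25303 probes were changed, with spreads shuffled among probes. There the fit recovered 53.0% of log2 changes of 1 and 82.0% of changes of 2. In the measured data 34.2% of tested probes passed, so these shares do not give the recovery of the fit reported here. With 4 arrays per label their number limits the precision.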

Additional observations from a re-analysis of the deposited data

Results flagged for a closer look

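In 2 of 28 sets of 4 arrays of the same label, a single array lay far from its 3 fellows; chance gives about 1 in 20 sets, here 1.40. For Ptgs2, control array 4 stood apart, at -6.42 against -7.53 to -7.40 (gap 0.883 of the range); it was the single array on which the probe was above background. For the brighter Ptgs1 probe, PMSG array 4 stood apart, at -0.31 against -0.80 to -0.73 (gap 0.862 of the range), and the Ptgs1 call held without that array.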

How the results depend on the processing

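Ptgs1 (brighter probe), Ptges, Ptger2 and Slco2a1 kept their direction and call under every alternative run; so did Ptgfr, except that it was not tested where all 8 arrays had to be above background, which left 5 of the 10 genes. The number of the 10 genes that differed was 6 with Ptgfr, and 34.2% of all tested probes passed in that fit. The number of genes lay between 5 and 7 over all alternatives, and between 6 and 7 when 1 array was left out. The alternative without a brightness filter also counted Ptgs2, whose probe lay below background on every array labelled PMSG. The number of other pathway genes, 27 with Ereg and Cysltr1, lay between 23 and 32 when 1 array was left out. Ptgfr, Ereg and Cysltr1 were tested through 1 label mainly. The count of all probes, 8658, lay between 6552 (without control array 4) and 11382 (without PMSG array 4) over fits on 7 arrays, and 2987 of them differed by a log2 value of at least 1 as well. Of the probes that differed, 51.4% were higher in arrays labelled PMSG, 46.2% with quantile normalization and 34.5% with median centring. The replicate block gave 7346 probes, 6 of the 10 genes and 25 other pathway genes. The labels do not say what same-numbered arrays share. Correlations of their deviations from the label means were 0.0444, 0.0361, 0.183 and -0.0192, which cannot settle it. Slide row as a block gave 8124 probes and 6 of the 10 genes. Within-array ratios when 1 array was left out differed by 0.09 to 0.62 for Ptges and Ptgds, 0.01 to 0.27 for Ptger2 and Ptger4 and 0.45 to 0.75 for Hpgd and Slco2a1; with 7 arrays the exact test cannot go below 0.0571, so these fits bear on the size alone. For dim probes (Ptgs2, Ptgfr, Ptger2, Ptger4, Slco2a1 and the Ptgs1 probe at base 460) signal over background limits the size of a difference.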
